A study of Homo sapiens with 18 samples.

Results

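This report concerns 10 genes of the heat shock response, 9 protein chaperones or co-chaperones and the transcription factor HSF1, in THP-1 cells, a human acute monocytic leukaemia line. The genes were taken by name, through the Ensembl identifiers that map to their symbols on the primary chromosomes, and all 10 were found among the 63677 genes of the count table. All 10 also passed the filter on low counts, which left 16678 genes for testing. The genes are usually grouped as cytosolic heat shock chaperones, but HSPD1 and HSPE1 encode the chaperonin of the mitochondrial matrix and HSF1 is no chaperone, so they are described separately below.

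The cells were transfected with a TRAFD1 siRNA (KD), with a scrambled control siRNA (SCR), or got no siRNA (WT). For WT, the series' design calls the cells untreated while the protocol gives them the transfection mix, so SCR and WT differ by the siRNA and possibly by the reagent, which cannot be told apart. The siRNAs were used at 25 nM, KD rests on a single siRNA, and 72 h after transfection the cells were kept in medium or given 10 ng/ml of lipopolysaccharide (LPS), a bacterial cell wall component, for 4 h. There were 6 groups of 3 libraries, which carry the numbers 1 to 3 without LPS and 4 to 6 with LPS, and all groups share the cell line.

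Heat shock proteins bind unfolded or newly made proteins and help them to fold. HSP70 proteins work in cycles driven by ATP, in which J proteins deliver the client and start hydrolysis and nucleotide exchange factors release it, and HSP90 acts later on near-native clients such as kinases and steroid receptors. HSF1 is held inactive by these chaperones in unstressed cells, and when it is released it binds heat shock elements, inverted repeats of the unit GAA, in front of chaperone genes. In macrophages and monocytes, HSP70 and HSP90 also serve innate immune signalling, where many kinases are clients of HSP90.

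The heat shock elements in front of the genes are shown here because they are the sites at which HSF1 is known to act and because the genes differ in them. RefSeq windows of 250 bases before to 50 bases after an annotated start (GRCh38.p14) held 9 of the 10 genes, in 15 windows. The letters GAANNTTCNNGAA or TTCNNGAANNTTC (3 units, which cover both strands) and the shorter GAANNTTC or TTCNNGAA (2 units, contained in the former) were searched. The 3-unit element was found for 4 genes, HSPA8, HSP90AA1, HSP90AB1 and HSPD1, in 4 of the 15 windows, against 0.490% of all 35116 windows. The 2-unit element was found for 7 genes, adding HSPA1A, HSPA1B and DNAJB1, in 8 of the 15 windows, against 13.5% of all windows. The windows of HSPH1 and HSPE1 held neither, but bases outside the windows were not searched. The HSPE1 window (chr2:197500129-197500428, plus strand) begins just past the HSPD1 window given below. The HSPD1 matches thus lie upstream of HSPE1 too, outside its window. The sequences below run 5′ to 3′ on the strand of the gene with every match in capitals, and where a gene had several windows the one with the most matches is given.
HSPA1B (chr6:31827488-31827787, plus strand): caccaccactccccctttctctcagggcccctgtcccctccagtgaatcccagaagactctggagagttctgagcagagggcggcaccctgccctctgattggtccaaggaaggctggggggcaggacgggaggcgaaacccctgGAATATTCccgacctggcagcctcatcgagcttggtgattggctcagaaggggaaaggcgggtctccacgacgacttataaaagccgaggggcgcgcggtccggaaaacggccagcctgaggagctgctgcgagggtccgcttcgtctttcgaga
HSPA1A (chr6:31815293-31815592, plus strand): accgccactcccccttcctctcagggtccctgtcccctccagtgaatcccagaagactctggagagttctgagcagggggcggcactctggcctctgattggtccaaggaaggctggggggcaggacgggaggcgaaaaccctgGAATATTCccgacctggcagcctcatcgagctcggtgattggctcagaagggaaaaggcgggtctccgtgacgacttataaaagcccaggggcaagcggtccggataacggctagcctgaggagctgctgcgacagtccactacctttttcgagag
HSPA8 (chr11:123062087-123062386, minus strand): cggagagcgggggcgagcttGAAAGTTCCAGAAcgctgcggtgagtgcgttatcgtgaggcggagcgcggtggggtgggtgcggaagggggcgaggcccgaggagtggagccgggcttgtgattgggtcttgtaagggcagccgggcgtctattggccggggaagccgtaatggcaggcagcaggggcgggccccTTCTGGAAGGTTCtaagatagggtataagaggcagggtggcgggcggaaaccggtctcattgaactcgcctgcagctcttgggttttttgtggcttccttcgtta
HSP90AA1 (chr14:102086995-102087294, minus strand): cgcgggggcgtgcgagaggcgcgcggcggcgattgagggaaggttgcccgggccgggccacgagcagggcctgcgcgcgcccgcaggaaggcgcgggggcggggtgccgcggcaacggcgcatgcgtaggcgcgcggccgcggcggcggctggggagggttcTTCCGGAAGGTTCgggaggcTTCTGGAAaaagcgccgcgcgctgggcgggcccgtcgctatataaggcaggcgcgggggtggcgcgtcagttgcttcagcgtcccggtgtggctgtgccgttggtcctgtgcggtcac
HSP90AB1 (chr6:44247693-44247992, plus strand): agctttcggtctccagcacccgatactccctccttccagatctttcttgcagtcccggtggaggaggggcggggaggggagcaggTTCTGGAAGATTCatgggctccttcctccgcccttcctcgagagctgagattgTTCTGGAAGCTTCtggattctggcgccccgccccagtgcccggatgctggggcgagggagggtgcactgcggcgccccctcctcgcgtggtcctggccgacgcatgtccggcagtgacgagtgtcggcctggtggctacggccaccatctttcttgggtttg
HSPD1 (chr2:197499791-197500090, minus strand): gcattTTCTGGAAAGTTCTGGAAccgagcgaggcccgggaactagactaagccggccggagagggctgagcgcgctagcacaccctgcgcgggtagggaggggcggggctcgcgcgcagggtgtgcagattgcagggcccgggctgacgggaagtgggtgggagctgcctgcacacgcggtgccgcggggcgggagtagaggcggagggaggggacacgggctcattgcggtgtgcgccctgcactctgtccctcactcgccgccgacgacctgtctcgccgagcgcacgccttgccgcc
DNAJB1 (chr19:14518348-14518647, minus strand): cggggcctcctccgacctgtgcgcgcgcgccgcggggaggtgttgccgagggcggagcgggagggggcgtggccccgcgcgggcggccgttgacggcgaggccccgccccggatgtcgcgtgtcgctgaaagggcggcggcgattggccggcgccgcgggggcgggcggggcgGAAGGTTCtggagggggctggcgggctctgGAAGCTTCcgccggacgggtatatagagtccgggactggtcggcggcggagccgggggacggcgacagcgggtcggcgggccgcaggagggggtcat

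HSPA1A and HSPA1B, neighbours on chromosome 6, have windows that are 92% identical over 300 bases. Counted in bases from the start, their element begins at -106 in HSPA1A and -105 in HSPA1B, followed by the letters TATAAA at -30 and -29, which were found in no window of the other 7 genes and, with the reverse TTTATA, in 11.5% of all windows. The 3-unit elements begin at -230 and -55 in HSPA8, at -88 in HSP90AA1, and at -165 and -112 in HSP90AB1. In HSPD1, 2 overlapping matches begin at -245 and -240. A match describes letters only and was not tested as a site.

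Libraries held 8206023 to 22344279 counts. The 3 counts which a value of 0 allows thus correspond to 0.134 to 0.366 per 1000000 counts of the unscaled library total, for counting error only. Levels are given as CPM (counts per 1000000, with library totals scaled by TMM). Of 12 monocytic markers, 10 exceeded 10 CPM in every library, and MPO (0.156 to 2.36 CPM) and CD14 (lowest 8.52 CPM) did not. Without LPS, KD libraries had less TRAFD1 RNA than SCR libraries (log2 fold change -1.45, edgeR adjusted p 0.0277, a call lost without SCR library 1 or 3 or KD library 2), and with LPS the difference missed the threshold (-0.65, edgeR adjusted p 0.262). TNF rose with LPS in WT, SCR and KD (log2 fold changes 3.16, 1.73 and 1.40), from means of 15.9, 43.3 and 43.2 CPM to 141, 144 and 114 CPM. Without LPS it was higher than in WT in both SCR (1.46, edgeR adjusted p 9.44e-06) and KD (1.45, edgeR adjusted p 1.10e-05), so the unstimulated groups were not alike. IL1B rose with LPS by 4.01, 4.24 and 4.90 and CXCL8 by 4.34, 3.84 and 3.34 on the log2 scale. Reads were counted over 500 bases of each gene from libraries primed at the 3′ end, so that counts were not divided by transcript length when levels of genes were compared.

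The 10 genes together held 0.541% to 0.603% of all counts in the 9 unstimulated libraries and 0.781% to 0.926% in the 9 LPS libraries. In bulk RNA, a change in the level per cell and a change in the number of cells that express a gene cannot be told apart. The most abundant genes were HSP90AB1 and HSP90AA1, at 1554 to 3721 CPM over all libraries. HSPA8 lay at 571 to 1319 CPM and HSPD1 at 283 to 544 CPM. HSPH1, HSPE1 and DNAJB1 lay between 135 and 358 CPM. HSF1, HSPA1A and HSPA1B were lowest, between 20.6 and 157 CPM. The order was the same at the top in 5 of the 6 groups, HSP90AB1, HSP90AA1, HSPA8 and HSPD1, each separated from the next in every library of the group. In KD with LPS the mean of HSP90AA1 stood first and its libraries overlapped those of HSP90AB1. Without LPS, HSPE1, DNAJB1 and HSPH1 overlapped their neighbours in the order in each condition, whereas with LPS HSPH1 stood above HSPE1 and DNAJB1 in each condition. HSPA1B was the lowest of the 10 genes in every group except KD with LPS, where HSF1 had the lowest mean and the libraries of both genes overlapped.

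**Figure D1:**
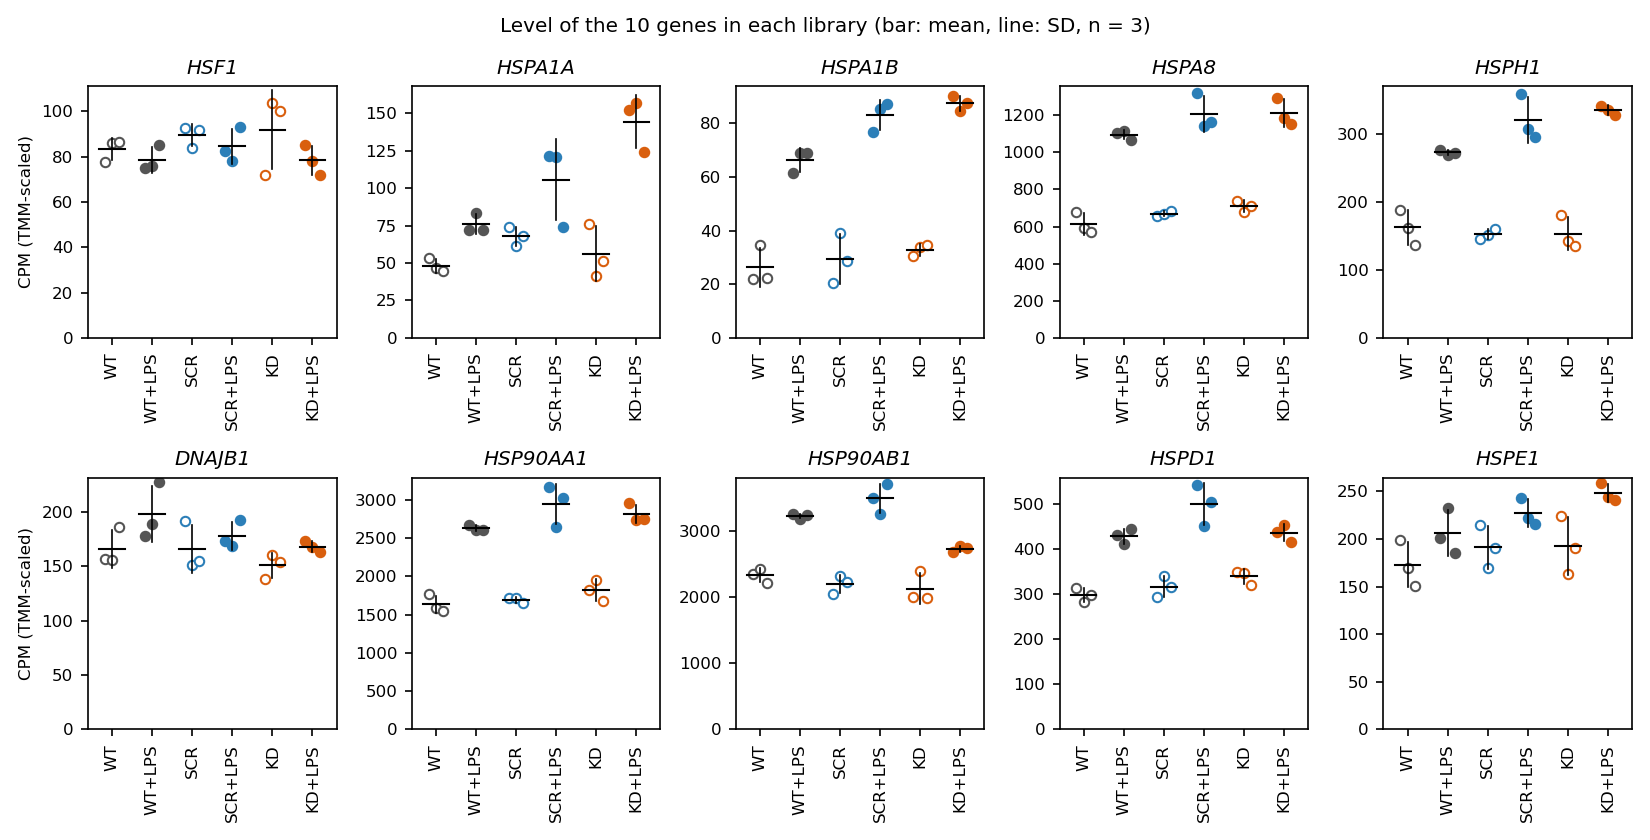
Level of each gene in CPM (vertical axes, starting at 0 and scaled per gene) in the 18 libraries, by group (horizontal axes), with open points for unstimulated and filled points for LPS libraries, bars for means and lines for the SD of 3 libraries. HSPA1A, HSPA1B, HSPA8, HSPH1, HSP90AA1, HSP90AB1 and HSPD1 stand higher with LPS in each condition without overlap, while HSF1 and DNAJB1 overlap in WT and SCR.

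LPS raised 7 of the 10 genes in each of WT, SCR and KD, and they were the same 7 genes, HSPA1A, HSPA1B, HSPA8, HSPH1, HSP90AA1, HSP90AB1 and HSPD1 (edgeR quasi-likelihood test, Benjamini-Hochberg adjusted p under 0.05 over 16678 genes). Of all genes tested, 7.01% rose and 7.26% fell in WT, 8.64% rose and 8.56% fell in SCR, and 6.41% rose and 5.05% fell in KD, while 2.82% rose in all of them and none of the 10 fell. HSF1, DNAJB1 and HSPE1 did not pass in any condition by this fit. The median log2 fold change of the 10 genes was 0.59 in WT, 0.66 in SCR and 0.50 in KD, against -0.030, -0.027 and -0.0029 over all genes tested. The LPS and unstimulated libraries did not overlap for 7, 8 and 9 of the 10 genes in WT, SCR and KD, compared with 32.5%, 37.3% and 25.4% of all genes. The genes were chosen with earlier results of these data known, and these counts describe them. With LPS the share of mitochondrial counts moved from 3.19% to 3.37% up to 3.82% to 4.45% in WT and from 3.28% to 3.47% up to 3.72% to 5.20% in SCR, and in KD the ranges overlapped (3.87% to 4.86% and 4.28% to 5.14%). The share of counts on pseudogenes was 9.14% to 9.64% without and 10.0% to 10.2% with LPS in WT, and overlapped between the states in SCR and KD. The part of these shares in the LPS responses was not tested.

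Among the HSP70 genes, HSPA1B (ENSG00000204388, chromosome 6, 31795515 to 31798031), with coordinates of GRCh37 here and for the other genes, one of the stress-inducible pair, had the highest log2 fold change of the 10 genes in WT and SCR, and in KD its value was close to that of HSPA1A, which was the higher one without KD library 1 or 6. In WT the unstimulated libraries stood at 22.2, 34.8 and 22.3 CPM and the LPS libraries at 61.4, 68.9 and 68.9 CPM. In SCR the values were 20.6, 39.0 and 28.6 CPM without LPS and 76.9, 85.5 and 87.2 CPM with it. The KD libraries were at 30.4, 33.9 and 34.5 CPM before and 90.4, 84.7 and 87.6 CPM after LPS. Every LPS library stood above every unstimulated library in its condition. Its log2 fold change was 1.34 (SE 0.178) in WT, 1.51 (SE 0.178) in SCR and 1.41 (SE 0.177) in KD, or 2.54-, 2.86- and 2.66-fold, with edgeR adjusted p of 1.26e-05, 3.65e-06 and 1.02e-05.

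Its neighbour HSPA1A (ENSG00000204389, chromosome 6, 31783320 to 31785723) encodes a protein almost identical to that of HSPA1B. In unstimulated WT cells its libraries held 53.4, 46.9 and 44.5 CPM, and LPS-treated ones 72.3, 83.5 and 71.8 CPM. SCR libraries held 74.0, 61.3 and 68.1 CPM without LPS and 122, 121 and 74.2 CPM with it. In KD cells the libraries held 76.4, 41.1 and 51.5 CPM and, after LPS, 152, 157 and 124 CPM. The LPS libraries stood above the unstimulated ones in each condition, but SCR library 6 lay just above the highest unstimulated SCR library and well below SCR libraries 4 and 5. HSPA1A changed with LPS by 0.65 (log2, SE 0.188) in WT cells, 0.64 (SE 0.186) for SCR and 1.35 (SE 0.188) for KD, with edgeR adjusted p of 0.0222, 0.0216 and 3.91e-05. In WT the call was lost without library 2, 3 or 5, at edgeR adjusted p of 0.0625, 0.0920 and 0.0835. In SCR it was lost without library 2, 3, 4 or 5, at 0.0822, 0.0592, 0.103 and 0.0979.

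The transcripts of HSPA1A and HSPA1B are 91.9% identical over their length and the last 500 bases of HSPA1A and of HSPA1B were 75.4% and 65.2% identical to their best placement in the other transcript, so the split of reads between them is uncertain. The ratio of HSPA1A to HSPA1B counts ran from 1.21 to 3.59 in the 9 unstimulated libraries and from 0.851 to 1.85 in the 9 LPS libraries. How reads with several positions were handled is not given in the sources used here.

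HSPA8 (ENSG00000109971, chromosome 11, 122928197 to 122933938), the constitutive HSP70 of the cytosol, was the most abundant of its family. In WT, levels without LPS were 678, 590.1 and 571 CPM and with LPS 1105, 1115 and 1066 CPM. Those of SCR were 657, 665 and 684 CPM and 1319, 1143 and 1160.5 CPM, in the same order. For KD they came to 739, 677 and 712 CPM and 1295, 1185 and 1154 CPM. Every LPS library stood above every unstimulated library, across conditions too. LPS raised it 1.79-fold in WT, 1.81-fold in SCR and 1.71-fold in KD (log2 0.84, 0.85 and 0.77, SE 0.0796, 0.0796 and 0.0795, edgeR adjusted p 1.12e-07, 1.22e-07 and 6.45e-07).

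HSPH1 (ENSG00000120694, chromosome 13, 31709110 to 31736525), a large HSP70 relative that exchanges nucleotides on HSP70, also rose. In WT libraries, 188, 162 and 137 CPM were measured without and 276, 269 and 272 CPM with LPS. For SCR these values were 146, 151 and 159.6 CPM and 358, 306 and 295 CPM. For KD libraries they were 180.3, 143 and 135 CPM and 341, 335 and 327 CPM. The conditions were spread between 135 and 188 CPM without LPS and between 269 and 358 CPM with it. HSPH1 changed by 0.75 in WT cells, 1.07 for SCR and 1.13 for KD on the log2 scale (SE 0.114, 0.114 and 0.115, edgeR adjusted p 6.83e-05, 9.11e-07 and 5.24e-07).

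DNAJB1 (ENSG00000132002, chromosome 19, 14625581 to 14671203), the J protein that partners inducible HSP70, stood at 138 to 191 CPM in the 9 unstimulated libraries and at 163 to 227 CPM in the 9 LPS libraries. In WT, the unstimulated values were 156, 155 and 186 CPM and those with LPS 178, 189 and 227 CPM. Unstimulated SCR cells gave 191, 151 and 155 CPM and stimulated ones 173, 168 and 192 CPM. Unstimulated KD cells gave 138, 160.1 and 154 CPM and stimulated ones 173, 167 and 163 CPM. LPS and unstimulated libraries overlapped in WT and SCR, and in KD they did not. On the log2 scale the change was 0.25 in WT (95% interval 0.022 to 0.48), 0.10 in SCR (-0.13 to 0.33) and 0.16 in KD (-0.075 to 0.39), with edgeR adjusted p of 0.145, 0.590 and 0.397. DNAJB1 is a heat shock target whose window holds 2 matches of the 2-unit element, at -77 and -47 from the start.

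HSF1 (ENSG00000185122, chromosome 8, 145515273 to 145538383), the master regulator of the heat shock genes, did not pass the test for LPS in any condition. In WT the unstimulated libraries stood at 77.7, 85.9 and 86.5 CPM and the LPS libraries at 74.9, 75.8 and 85.3 CPM. In SCR the values were 92.8, 83.8 and 91.9 CPM without LPS and 82.7, 78.1 and 93.0 CPM with it. The KD libraries were at 71.8, 104 and 100.3 CPM before and 85.1, 78.0 and 72.1 CPM after LPS. The groups overlapped in all conditions, and KD library 1 was the lowest of all 18. The estimated change was -0.083 on the log2 scale in WT (-0.34 to 0.17), -0.082 in SCR (-0.33 to 0.17) and -0.23 in KD (-0.48 to 0.024). The edgeR adjusted p were 0.724, 0.702 and 0.239. Without KD library 1 the value in KD was -0.38 and passed the threshold, at edgeR adjusted p 0.0179. The last 500 bases of HSF1 lie on the opposite strand of DGAT1, and the strand setting of the counting is not given in the sources used here, so reads of both genes may be mixed.

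The HSP90 genes encode nearly alike proteins, HSP90AA1 being the more inducible and HSP90AB1 the more constitutive form. For HSP90AA1 (ENSG00000080824, chromosome 14, 102547079 to 102606036), in unstimulated WT cells its libraries held 1766, 1583 and 1554 CPM, and LPS-treated ones 2677, 2603 and 2610.4 CPM. SCR libraries held 1718, 1716 and 1650.4 CPM without LPS and 3163, 2650.3 and 3018 CPM with it. In KD cells the libraries held 1827, 1958 and 1679 CPM and, after LPS, 2954, 2737 and 2755 CPM. LPS libraries stood above all unstimulated libraries. The increase was 1.61-fold in WT, 1.74-fold in SCR and 1.55-fold in KD (log2 0.69, 0.80 and 0.63, edgeR adjusted p 1.11e-06, 1.79e-07 and 6.63e-06).

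For HSP90AB1 (ENSG00000096384, chromosome 6, 44213903 to 44221625), in WT, levels without LPS were 2353, 2426 and 2220.1 CPM and with LPS 3259, 3191 and 3245 CPM. Those of SCR were 2051, 2319 and 2232 CPM and 3502, 3269.5 and 3721 CPM, in the same order. For KD they came to 1998, 2404 and 1993 CPM and 2684, 2777 and 2745 CPM. Unstimulated libraries of the conditions overlapped each other, and KD libraries with LPS stood below all WT and SCR libraries with LPS. LPS raised HSP90AB1 by 1.39-fold in WT, 1.59-fold in SCR and 1.28-fold in KD (log2 0.47, 0.67 and 0.36, edgeR adjusted p 0.000144, 2.38e-06 and 0.00324).

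The chaperonin genes HSPD1 and HSPE1 lie head to head on chromosome 2 and encode the ring and its lid in the mitochondrial matrix. For HSPD1 (ENSG00000144381, chromosome 2, 198351308 to 198381461), in WT libraries, 315, 283 and 298 CPM were measured without and 431, 412 and 445 CPM with LPS. For SCR these values were 295, 342 and 316 CPM and 544, 452 and 506 CPM. For KD libraries they were 351, 348 and 321 CPM and 439.8, 454 and 417 CPM. LPS libraries stood above the unstimulated ones in each condition. HSPD1 rose by 0.52 in WT cells, 0.66 for SCR and 0.36 for KD on the log2 scale (SE 0.0843, 0.0844 and 0.0841, edgeR adjusted p 0.000138, 1.15e-05 and 0.00685).

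For HSPE1 (ENSG00000115541, chromosome 2, 198364864 to 198368173), in WT, the unstimulated values were 199, 170.1 and 151 CPM and those with LPS 201, 233 and 185 CPM. Unstimulated SCR cells gave 215, 169 and 190.1 CPM and stimulated ones 244, 222 and 216 CPM. Unstimulated KD cells gave 225, 164 and 191 CPM and stimulated ones 259, 244 and 241 CPM. WT libraries overlapped between states, SCR and KD libraries did not. Log2 changes were 0.25 for WT (-0.0022 to 0.51), 0.25 for SCR (-0.0093 to 0.50) and 0.36 for KD (0.11 to 0.62), and edgeR adjusted p were 0.192, 0.185 and 0.0598. Without KD library 1 the value in KD was 0.49 and passed, at edgeR adjusted p 0.00882. It also passed by DESeq2 on all libraries (adjusted p 0.0417) and with no filter (edgeR adjusted p 0.0240). The last 500 bases of HSPE1 overlap the span of HSPD1 on the other strand and the readthrough gene HSPE1-MOB4.

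**Figure D2:**
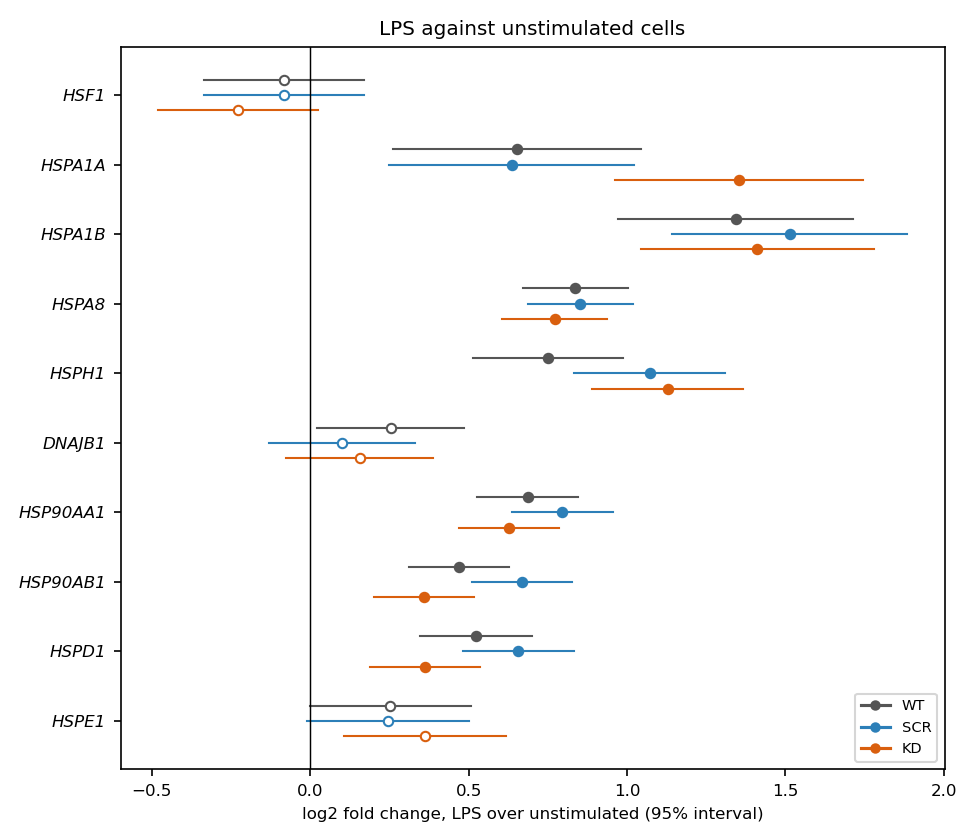
Log2 fold change of LPS over unstimulated libraries (horizontal axis) for the 10 genes (vertical axis) in WT, SCR and KD, with 95% intervals of the edgeR fit and filled points where the adjusted p is under 0.05. HSPA1B has values of 1.34 to 1.51, HSPA1A has values of 1.35 in KD, 0.65 in WT and 0.64 in SCR, and the intervals of HSF1 and DNAJB1 lie around or near 0.

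Whether these LPS responses differ between conditions was tested as interactions. In the comparison of KD with SCR, 0 of the 10 genes passed by edgeR, 3 had an unadjusted p under 0.05, and DESeq2 called 0, with 0% of all genes called. For KD against WT the counts were 0 by edgeR, 2 unadjusted and 0 by DESeq2, with 0.360% of all genes called (0.0600% higher), and for SCR against WT they were 0, 0 and 0, with 0.234% (0.0180% higher). In the same order, 1274, 2593 and 1661 of all 16678 genes had an unadjusted p under 0.05. The response of HSPA1A was 0.72 (SE 0.263) higher on the log2 scale in KD than in SCR and 0.70 (SE 0.264) higher than in WT (unadjusted p 0.0125 and edgeR adjusted p 0.603 for the former, edgeR adjusted p 0.226 for the latter). The response of HSP90AB1 was -0.31 (SE 0.107) in KD relative to SCR and that of HSPD1 was -0.29 (SE 0.119), at edgeR adjusted p of 0.597 and 0.612. Without KD library 1 of the unstimulated group, the interactions with WT of HSPA1A (0.99) and HSPH1 (0.52) passed, at edgeR adjusted p of 0.0147 and 0.0359.

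The comparison of KD with SCR, which share the transfection with an siRNA, asks for the effect of lowering TRAFD1. Without LPS, 0 of the 10 genes passed by edgeR, 0 had an unadjusted p under 0.05 and DESeq2 called 0, with 0.0660% of all genes called (0.0420% lower). An unadjusted p under 0.05 was found for 2107 of all 16678 genes. The libraries overlapped for all 10 genes, while 15.1% of all genes did not overlap. The values ran from -0.27 (HSPA1A) to 0.17 (HSPA1B) with SE of 0.0758 to 0.187. With LPS, 0 of the 10 genes passed by edgeR, and 0% of all genes did. The libraries did not overlap for 2 of the 10, HSPA1A and HSP90AB1, compared with 21.5% of all genes. Of the 10 genes, 3 had an unadjusted p under 0.05, HSP90AB1, HSPA1A and HSPD1, against 1963 of all 16678 genes. DESeq2 on all libraries called 1, HSP90AB1.

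With LPS the KD libraries of HSP90AB1, at 2684, 2777 and 2745 CPM, were below the SCR libraries, at 3502, 3269.5 and 3721 CPM. The log2 fold change was -0.35 (SE 0.0760, 95% interval -0.51 to -0.20) and the edgeR adjusted p 0.0932 missed the threshold. By DESeq2 on all 18 libraries, which called 2.18% of all genes, the value was -0.37 with an adjusted p of 0.00541. HSPA1A had all 3 KD libraries above those of SCR without passing (0.45, SE 0.185, edgeR adjusted p 0.344), and the value was 0.25 without SCR library 6. HSPA1A passed with no filter (edgeR adjusted p 0.0382, 1.25% of all genes called). It also passed with the library number as a block (edgeR adjusted p 0.00812, 7.35% of all genes called), though the libraries of this pair did not deviate together by number. HSPD1 had a value of -0.20 (SE 0.0840, edgeR adjusted p 0.364) and its groups overlapped. For the other 7 genes the values lay between -0.11 and 0.13, and the widest 95% interval, that of HSPA1B, ran from -0.28 to 0.43. With LPS the share of counts on pseudogenes was 10.8% to 10.9% in KD and 10.5% to 10.6% in SCR. Without LPS these ranges overlapped. The share of mitochondrial counts without LPS was 3.87% to 4.86% in KD and 3.28% to 3.47% in SCR. With LPS the mitochondrial ranges overlapped. The part of these shares in the differences between KD and SCR was not tested.

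In SCR against WT without LPS, 0 of the 10 genes passed by edgeR, 1 had an unadjusted p under 0.05 and DESeq2 on all libraries called 0, while edgeR called 1.78% of all genes higher and 1.45% lower, or 3.23%. An unadjusted p under 0.05 was found for 2866 of all 16678 genes. Libraries did not overlap for 1 of the 10 genes and for 22.6% of all genes. That 1 gene was HSPA1A, whose SCR libraries (74.0, 61.3 and 68.1 CPM) stood above those of WT (53.4, 46.9 and 44.5 CPM), a log2 difference of 0.49 (SE 0.187) with an edgeR adjusted p of 0.161. With LPS, 0 passed by edgeR, 3 had an unadjusted p under 0.05, and DESeq2 called 0, with 0.114% of all genes called (0.0899% lower). An unadjusted p under 0.05 was found for 2285 of all 16678 genes. Libraries did not overlap for 5 of the 10 genes and for 22.8% of all genes. These 3 with a low unadjusted p were HSPD1 (0.22), HSPA1A (0.48) and HSP90AA1 (0.16). The libraries of this pair deviated together by number. With the number as a block in all 9 LPS libraries, HSPA1A (0.43, edgeR adjusted p 0.0153) and HSPA1B (0.30, edgeR adjusted p 0.0337) were higher in SCR. Under the block 8.66% of all genes were called. The share of counts on pseudogenes was 10.2% to 10.5% in SCR and 9.14% to 9.64% in WT without LPS. With LPS it was 10.5% to 10.6% and 10.0% to 10.2%. The mitochondrial shares overlapped in both states. The part of these shares in the differences between SCR and WT was not tested.

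KD against WT, which differ in the siRNA and possibly in the transfection, called 0 of the 10 genes without LPS by edgeR, with 11.7% of all genes called, 5.85% higher and 5.85% lower. Libraries did not overlap for 1 of the 10 genes, HSPD1, and for 24.3% of all genes. Of the 10, 2 had an unadjusted p under 0.05, HSPA8 (0.21, edgeR adjusted p 0.0918) and HSPD1 (0.19, 0.165), against 4297 of all 16678 genes. DESeq2 on all libraries called 1, HSPA8. Without WT library 1, HSPA8 passed (0.29, edgeR adjusted p 0.0380), and without WT library 2, HSPA1B passed (0.57, edgeR adjusted p 0.0387).

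With LPS, 2 of the 10 genes differed between KD and WT by edgeR, 1 higher and 1 lower, against 6.29% of all genes higher and 4.55% lower. TRAFD1 itself did not pass in this comparison (-0.23, edgeR adjusted p 0.563) and its libraries overlapped, while without LPS it was lower in KD than in WT (-1.23, edgeR adjusted p 0.00156). HSPA1A was higher, with KD at 152, 157 and 124 CPM and WT at 72.3, 83.5 and 71.8 CPM and no overlap. The log2 fold change was 0.93 (SE 0.187, 1.90-fold, edgeR adjusted p 0.00498), and the call held in all 6 fits that left out 1 library, at 0.86 to 1.03. HSP90AB1 was lower, with KD at 2684, 2777 and 2745 CPM and WT at 3259, 3191 and 3245 CPM, at -0.24 (SE 0.0759, 0.846-fold, edgeR adjusted p 0.0457). Its call did not hold in any of the 6 fits that left out 1 library, at -0.25 to -0.23 and edgeR adjusted p of 0.0835 to 0.151. The libraries of KD and WT did not overlap for 8 of the 10 genes, compared with 35.0% of all genes. HSPA1B (0.40), HSPH1 (0.29), HSPE1 (0.27) and DNAJB1 (-0.24) had an unadjusted p under 0.05 but edgeR adjusted p of 0.142, 0.0975, 0.168 and 0.174. With the called genes, 6 of the 10 had an unadjusted p under 0.05, against 4413 of all 16678 genes. KD against SCR and KD against WT share the KD libraries, so their values are not independent. With LPS the share of counts on pseudogenes was 10.8% to 10.9% in KD and 10.0% to 10.2% in WT, and without LPS 10.5% to 11.2% and 9.14% to 9.64%. The share of mitochondrial counts without LPS was 3.87% to 4.86% in KD and 3.19% to 3.37% in WT, and with LPS the ranges overlapped. The part of these shares in the differences between KD and WT was not tested.

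**Figure D3:**
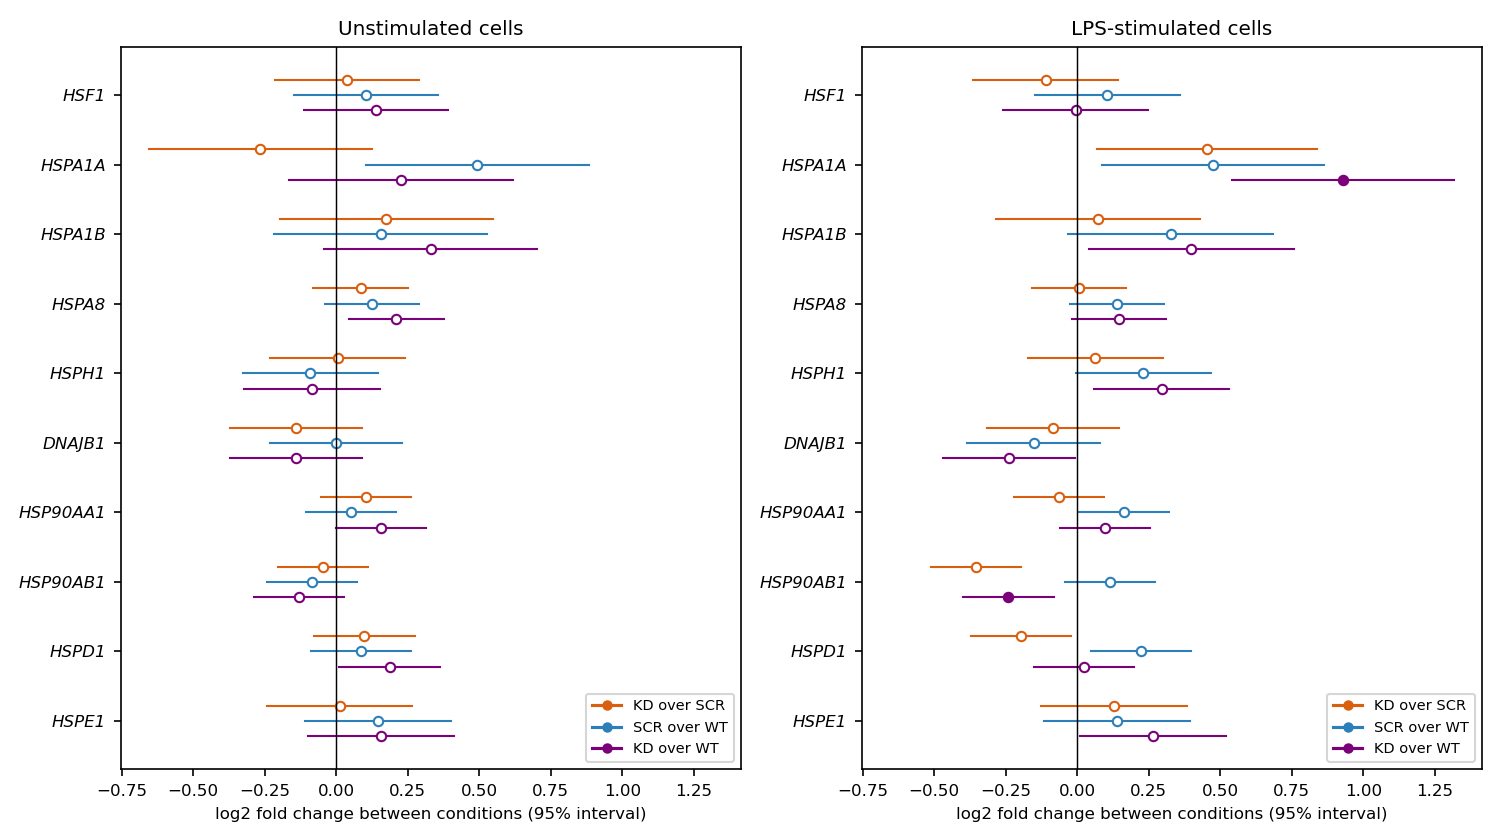
Log2 fold change between conditions (horizontal axis) for the 10 genes (vertical axis) in unstimulated (left) and LPS-stimulated cells (right), with 95% intervals of the edgeR fit and filled points where the adjusted p is under 0.05. The filled points are HSPA1A (0.93) and HSP90AB1 (-0.24) in KD over WT with LPS, and the interval of HSP90AB1 in KD over SCR with LPS lies wholly below 0.

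The ratio of HSP90AA1 to HSP90AB1 counts within a library does not depend on the scaling of the library. It was 0.751, 0.652 and 0.700 in the WT libraries without LPS and 0.821, 0.816 and 0.804 with it. In SCR it was 0.838, 0.740 and 0.739 without LPS and 0.903, 0.811 and 0.811 with it, and in KD 0.914, 0.814 and 0.842 and 1.10, 0.986 and 1.00. The KD libraries with LPS held the 3 highest ratios of all 18 libraries and did not overlap with any other group, and the WT libraries without LPS overlapped at their upper end with SCR only. In each unstimulated group library 1 held both the highest ratio and the highest HSPA1A level, as did library 4 in SCR with LPS. In WT and KD with LPS, library 4 held the highest ratio and library 5 the highest HSPA1A level. The ratio was not tested.

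**Figure D4:**
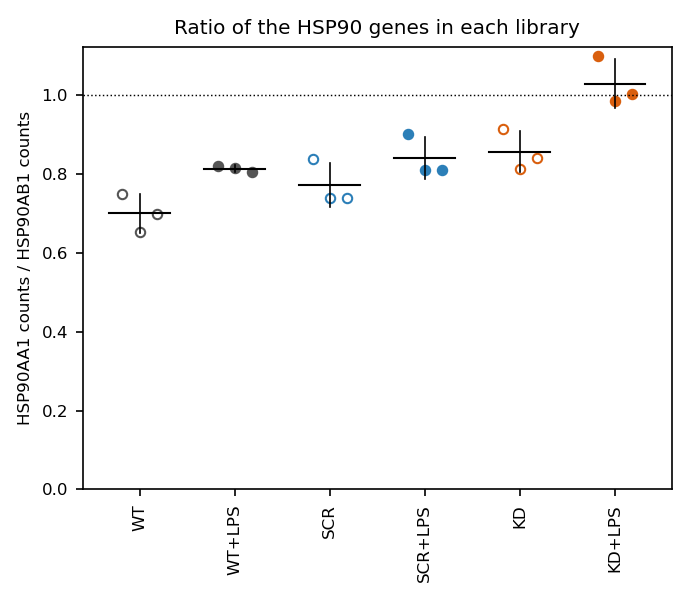
Ratio of HSP90AA1 to HSP90AB1 read counts (vertical axis, starting at 0) in each of the 18 libraries by group, with open points for unstimulated and filled points for LPS libraries, a bar for the mean and a line for the SD of 3 libraries. KD libraries with LPS lie at 0.986 to 1.10, above all other libraries, and the dotted line marks equal counts.

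In KD without LPS and in SCR with LPS, HSPA1A and HSPA1B differed in which library was highest. In the former HSPA1A stood at 76.4, 41.1 and 51.5 CPM while HSPA1B stood at 30.4, 33.9 and 34.5 CPM, and in SCR with LPS it stood at 122, 121 and 74.2 CPM while HSPA1B stood at 76.9, 85.5 and 87.2 CPM. HSPD1P1, a processed pseudogene of HSPD1 singled out after its values were seen, stood at 47.1, 17.2 and 21.6 CPM in the same KD libraries and at 45.3, 52.6 and 30.1 CPM in the same SCR libraries. Over 18 libraries, deviations from the group means in HSPA1A had a Pearson r of 0.93 with those in HSPD1P1, 0.75 with those in HSPE1 and -0.32 with those in HSPA1B. With LPS, HSPD1P1 was also higher in KD than in WT by 1.21 on the log2 scale (edgeR adjusted p 0.0116), the comparison in which HSPA1A was called. The part of these values in the HSPA1A and HSP90AB1 results was not tested.

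Pseudogenes are annotated for 6 of the 10 genes, and whether reads were shared between them and the parent was not tested. The last 500 bases of the parent were fitted into its pseudogenes, short ones left out, and edits were counted over all 500 bases. By this measure identity was at most 53.8% for the pseudogenes of HSP90AA1, HSP90AB1, HSPA8 and HSPD1 and 51.6% to 64.4% for those of HSPE1. A pseudogene of fewer bases, such as HSPE1P3 at 309 (59.6%), cannot reach full identity. Identity over the shared stretch was not computed, so these values do not show that reads can be told apart. The pseudogenes of HSPE1 held 43.7% to 54.4% of the counts that fell on HSPE1 and its pseudogenes, those of HSPD1 8.15% to 17.5%, those of HSP90AA1 7.59% to 14.0%, those of HSP90AB1 3.46% to 6.36%, those of HSPA8 0.357% to 2.15% and those of DNAJB1 0% to 0.660%. HSPE1P3 and HSPE1P4 had counts in a ratio of 1.02 to 1.05 in every library. Of 21 pseudogenes tested, 9 rose with LPS in WT cells, 7 for SCR and 7 for KD and none fell, and 6 were higher in KD than in WT in each state. Of all genes, 7.01%, 8.64% and 6.41% rose with LPS, and 5.85% and 6.29% were higher in KD than in WT without and with LPS. HSP90AA2P rose by a log2 fold change of 1.06 in WT cells, 0.76 for SCR and 0.47 for KD. When counts of each gene were summed with those of its copies and pseudogenes, HSPE1 passed with LPS in KD (0.47, edgeR adjusted p 0.0496), the joint HSPA1A and HSPA1B count was higher in KD than in WT with LPS (0.71, edgeR adjusted p 0.00194), and HSP90AB1 no longer passed there (-0.24, edgeR adjusted p 0.0562).

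Over the 18 libraries, the gene most alike in log2 CPM to HSPA8 was HSP90AA1, with a Pearson r of 0.983, followed by the chemokine gene CCL2, also at 0.983. HSP90AA1 was in turn closest to HSPA8 and then to DNTTIP2 (0.969). HSPD1 was closest to HSP90AA1 (0.966) and NOM1 (0.961), HSPH1 to GCLM (0.977) and KYNU (0.970), and HSP90AB1 to CDK12 (0.957) and WSB1 (0.957). HSPA1B was closest to NOTCH2 (0.954) and ZCCHC2 (0.954) and HSPA1A to FTH1P11 (0.949) and CYCS (0.948). HSPE1 was closest to ATP2A2 (0.954) and to its pseudogene HSPE1P4 (0.948). The closest genes were FGD2 (0.900) and GOLGA6L23P (0.896) for DNAJB1 and PKD1 (0.837) and NELFB (0.825) for HSF1. Coefficients of this kind include the difference between LPS and unstimulated libraries and are given as descriptions.

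The other chaperones, co-chaperones and heat shock regulators were taken from a list of 88 genes, of which 80 were tested. With LPS, 9 of the 80 rose and 3 fell in WT, 15 rose and 7 fell in SCR, and 13 rose and 4 fell in KD. The median log2 fold changes were 0.12, 0.093 and 0.057. Of the 80 genes, 7 rose and 2 fell in all of WT, SCR and KD, and 0 were called in opposite directions. In the same contrasts the shares over all genes, against which these counts and those of the classes below are to be read, were 7.01% higher and 7.26% lower in WT, 8.64% and 8.56% in SCR, and 6.41% and 5.05% in KD. The counts in WT were 5 higher and 2 lower without WT library 3, and likewise without WT library 4, those in SCR were 10 and 4 without SCR library 4, and those in KD were 6 and 2 in the edgeR fit of the 2 groups alone.

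FKBP5, an immunophilin of the steroid receptor complex, rose by 1.28 (SE 0.187) in WT cells, 1.13 for SCR and 1.43 for KD on the log2 scale, with edgeR adjusted p of 4.20e-05, 0.000212 and 1.68e-05. CHORDC1, which binds HSP90 through its CHORD domains, rose by 0.67, 1.35 and 1.10 (edgeR adjusted p 0.00469, 3.51e-06 and 4.70e-05). Of the 12 tested HSP90 co-chaperones, 2 rose in WT, 4 in SCR and 2 in KD. None of them fell.

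Among J proteins, 3 of 16 rose in WT, 4 rose and 1 fell in SCR, and 5 rose in KD. DNAJA4 rose in each condition (0.83, 0.61 and 0.64, edgeR adjusted p 2.00e-05, 0.000816 and 0.000736). HSPA4L, a relative of HSPH1, rose by 0.84, 1.07 and 0.68, while HSPA13, an HSP70 of the endoplasmic reticulum, fell (-0.68, -0.56 and -0.85). Among the HSP70 co-factors BAG2, an inhibitor of the ubiquitin ligase CHIP, rose (0.55, 0.69 and 0.99), whereas the stress-inducible exchange factor BAG3 had values of 0.20, 0.61 and 1.19 and rose in KD. HSPBP1, of the same class, fell in SCR (-0.61, edgeR adjusted p 0.0464) and KD (-0.67, edgeR adjusted p 0.0361) and did not pass in WT. Its call in KD was lost without KD library 3, 5 or 6 and in the edgeR fit of the 2 groups alone. In the interaction tests edgeR called 0 of the 80 genes. At an unadjusted p under 0.05 there were 5 (KD against SCR), 6 (SCR against WT) and 10 (KD against WT), against 1274, 1661 and 2593 of all 16678 genes. DESeq2 called 0, 0 and 2 of the 80. For KD against WT, edgeR called 3 higher and 4 lower without KD library 1, 1 higher and 3 lower without WT library 2, and 2 higher and 3 lower with no filter, and for SCR against WT it called 1 lower without WT library 2 and 1 with no filter.

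In the ring-shaped TRiC complex of the cytosol, 2 of 8 subunits rose in WT, 2 rose and 1 fell in SCR, and 2 rose in KD, with CCT6A higher in each (0.44, 0.30 and 0.35). Of 11 mitochondrial chaperones and proteases, 1 fell in WT, 1 rose and 2 fell in SCR, and 2 fell in KD, with GRPEL2, a nucleotide exchange factor of mitochondrial HSP70, lower in each (-1.48, -1.14 and -0.94). The protease LONP1 had values of -0.17, -0.52 and -0.84 and fell in SCR and KD. Of the heat shock factors, HSF2 fell in SCR (-0.48, edgeR adjusted p 0.000782), and its call in WT (-0.26, edgeR adjusted p 0.0497) was lost in each of the 6 fits that left out 1 library. SIRT1, a deacetylase of HSF1, had values of -0.18, 0.15 and 0.76 and rose in KD (edgeR adjusted p 0.00378), and was picked out after its values were seen.

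**Figure D5:**
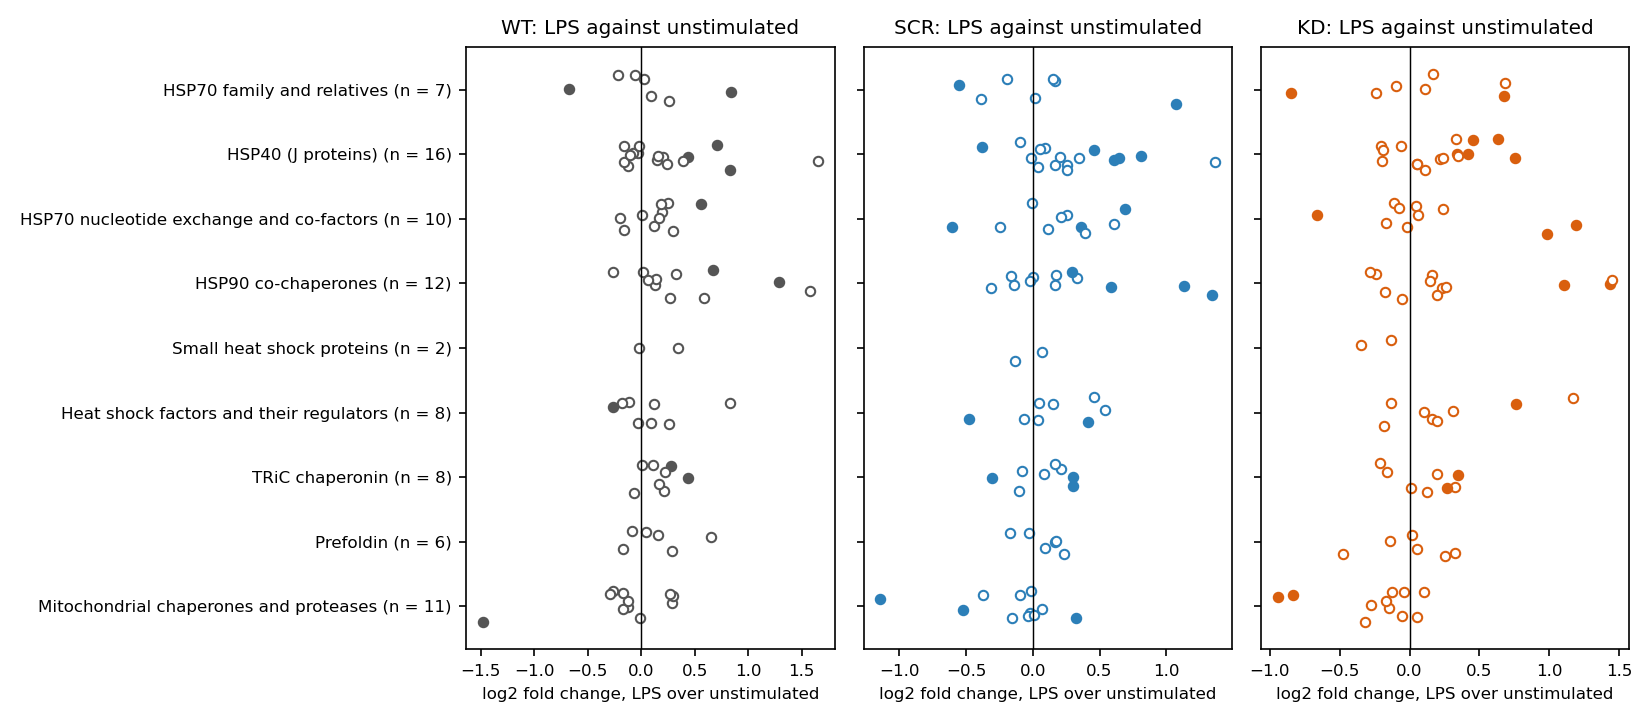
Log2 fold change of LPS over unstimulated libraries (horizontal axes) for the 80 tested genes of the chaperone list, by class (vertical axis, with the number tested), in WT, SCR and KD. Each point is a gene, filled where the edgeR adjusted p is under 0.05, and most points are open, with 9, 15 and 13 genes called higher.

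Between conditions, KD against SCR called 0 of the 80 genes by edgeR in either state. Without LPS, 10 had an unadjusted p under 0.05, against 2107 of all 16678 genes, and DESeq2 on all libraries called 2, against 2.92% of all genes. With LPS, 6 had an unadjusted p under 0.05, against 1963 of all 16678 genes, and DESeq2 on the pair alone called 2, against 6.53% of all genes. SCR against WT called 2 higher without LPS, PTGES3 (0.35) and HSPA9 (0.36), against 1.78% of all genes. Neither passed in the edgeR fit of the 2 groups alone, with the library number as a block or without WT library 3. Of the 6 fits that left out 1 library, HSPA9 lost its call in 5 and PTGES3 in 3. HSPA9 also lost it with no filter. DESeq2 on all libraries called 3 higher and 3 lower and edgeR with no filter 4 higher and 1 lower, against 6.44% and 2.25% of all genes called. With LPS the count for SCR against WT was 0 by edgeR, and 20 had an unadjusted p under 0.05, against 2285 of all 16678 genes. DESeq2 on all libraries called 3 and the fit with the library number as a block called 13, against 2.10% and 8.66% of all genes. Against WT, KD called 9 higher and 6 lower without LPS and 4 higher and 6 lower with LPS, where 11.7% and 10.8% of all genes were called. Without LPS these counts were 3 and 6 without WT library 1, 4 and 5 without WT library 3, and 1 and 0 in the edgeR fit of the 2 groups alone, which called 1.81% of all genes. HSPA9, the mitochondrial HSP70, was higher in KD in both states (0.54 and 0.49, edgeR adjusted p 0.00106 and 0.00421). It stood at 135, 118 and 125 CPM in WT and 199.6, 177 and 174 CPM in KD without LPS. The J protein DNAJC5 was lower in both states (-0.50 and -0.53, edgeR adjusted p 0.00264 and 0.00339), as was HSF2 (-0.45 and -0.36, 0.00242 and 0.0137). Without LPS, PFDN6 (1.27, edgeR adjusted p 0.00202) and HSPB7 (0.98, edgeR adjusted p 0.00770) were higher and DNAJB6 lower (-0.54, edgeR adjusted p 0.00115). In the edgeR fit of the 2 groups alone these calls were lost, as were those of DNAJC5 and HSF2 in that state. BAG3 was higher with LPS (1.21, edgeR adjusted p 0.0126), a call lost without WT library 6 or KD library 5. UNC45A, an HSP90 co-chaperone of myosin folding, was lower (-0.49, edgeR adjusted p 0.0110) and the prefoldin subunit PFDN2 higher (0.68, edgeR adjusted p 0.0193). HSF2 and PFDN2 likewise lost their calls with LPS without 1 library, HSF2 without WT library 6 or KD library 5 or 6 and PFDN2 without WT library 6 or KD library 4 or 5. Without WT library 6 the counts with LPS were 1 higher and 2 lower, as they were without KD library 5.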

How the data were processed

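Libraries were made by the authors with a 3′ QuantSeq kit from 18 THP-1 samples, aligned with HISAT to GRCh37 (Ensembl annotation) and counted with featureCounts over 500 bases per gene. The methods leave unclear which end of the gene these bases were taken from, and strand and multi-mapped read settings are not given in the sources used here. The values are raw counts per gene, as the authors deposited them. The treatments were done in triplicate per the methods, and whether these were separate cultures is not stated, so p-values measure the spread between these libraries, which may be in part technical.

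Genes were named by Ensembl identifier from GENCODE v44lift37. Genes with low counts were removed by filterByExpr, which left 16678 of 63677, and all 18 libraries were fitted together with TMM scaling and edgeR 4.0.16 (R 4.3.3, limma 3.58.1) by the quasi-likelihood test in 12 contrasts, 3 of them interactions, with Benjamini-Hochberg adjustment over all genes tested and a threshold of 0.05. CPM used the TMM library totals and log2 CPM a prior count of 2. Libraries with the same number deviated together between SCR and WT with LPS (correlation of deviations from the group means 0.163 to 0.261, over 0.1 in 3 of 3 pairs). No other comparison passed that check. This pairing was read from the data alone and was not used in the main fit, where all comparisons were unpaired. The fit with the number as a block used all 9 libraries of a state, so it also covered KD.

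Alternatives were RLE scaling, no filter, DESeq2 1.42.0, fits of 2 groups alone, copies summed with their gene, the replicate number as a block, and leaving out each library. The 10 genes were named in every contrast. From the list of other chaperones, up to 3 genes per direction and contrast with the smallest adjusted p and no overlap were named. BAG3 and LONP1 in conditions where they did not pass, SIRT1 and HSPD1P1 were picked out after their values were seen. For each of the 10 genes, the 2 tested genes with the highest Pearson r were named. The 10 genes and the lists were chosen with earlier results of these data known. The fits were run on simulated counts drawn with the fitted spread of each gene and with changes set only in WT with LPS. That run was a check of the code and does not measure how well the fits find the differences between conditions.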

Additional observations from a re-analysis of the deposited data

How the results depend on the processing

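For the LPS responses of the 10 genes, and for their other comparisons with an unadjusted p under 0.05, 587 alternative values kept their direction and side of the threshold, 15 lost a call, 33 gained one and 0 changed direction. Scaling by RLE changed no call of these genes and moved the median of all genes by at most 0.036 on the log2 scale. The calls in the LPS responses numbered 6 to 7 in WT, 6 to 7 in SCR and 7 to 9 in KD without 1 library.

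For KD against SCR with LPS, where 0 genes passed, HSP90AB1 and HSPA1A (2) passed with no filter and 2 with the replicate block, and HSP90AB1 alone (1) by DESeq2 on all libraries and by edgeR and DESeq2 on the 2 groups alone. These fits called 1.25%, 7.35%, 2.18%, 1.05% and 6.53% of all genes. For SCR against WT without LPS, with 0, HSPA1A (1) passed with no filter and by edgeR and DESeq2 on the 2 groups alone, where 2.25%, 2.60% and 5.72% of all genes were called. For SCR against WT with LPS, with 0, 1 passed with no filter (1.74% of all genes) and 2 with the replicate block (8.66%). KD against WT without LPS, with 0, had 1 by DESeq2 on all libraries (13.7%) and 0 to 1 without 1 library. KD against WT with LPS, with 2, had 1 with no filter (6.24% of all genes called), 4 by edgeR (21.6%) and 5 by DESeq2 (19.6%) on the 2 groups alone, 6 with the replicate block (25.1%), and 1 in each fit without 1 library. The interactions, with 0, had 1 each with no filter for KD against SCR and KD against WT (0.387% and 2.14% of all genes), and the latter 0 to 2 without 1 library. The cause of these changes was not tested.

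Outside SCR against WT with LPS the libraries share only a number. There, 3 of 6 libraries correlated best with their own number in KD against SCR in each state, and 2 of 6 in the other comparisons. No paired analysis was possible because the LPS and unstimulated libraries share no numbers, for the LPS responses and the interactions.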
